A study of Mus musculus with 36 samples.

Results

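Ogt, the X-linked gene of O-GlcNAc transferase, was followed through Xist-mediated silencing in 36 ChrRNA-seq libraries, in which chromatin-bound RNA is sequenced as a measure of transcription. It is 1 of the 249 genes of the larger deposited table and 1 of the 242 genes of the table that includes the K518E line. The value analysed is Xi/(Xi+Xa), the fraction of allele-assigned reads that come from the inactive X chromosome (Xi), where equal output from both X chromosomes gives 0.5 and complete silencing gives 0. Ogt was chosen from these values. At day 7 it had the third-largest difference between E147A and Halo-SMCHD1 among the 40 genes that were called by limma and whose libraries did not overlap. Its values in that comparison are therefore given as a description without a test, and so are those in the other comparisons that use the same Halo-SMCHD1 libraries.

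OGT is the enzyme that attaches single N-acetylglucosamine sugars to serine and threonine residues of nuclear and cytoplasmic proteins, and it also cleaves the transcriptional co-regulator HCF-1. During X inactivation, Xist RNA coats the chromosome from which it is transcribed and most of its genes are silenced. SMCHD1, a chromosomal protein with a GHKL ATPase domain, accumulates on Xi and is needed to keep many Xi genes silent, and LRIF1 is a protein that binds SMCHD1.

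All cells were interspecific XX mouse embryonic stem cells (mESCs) in which a TetOn promoter drives Xist from the 129S allele when doxycycline (dox) is added, so that Xi is the 129S chromosome and the active X (Xa) is the Cast chromosome. The 8 lines were the parental iXist-ChrX, an SMCHD1 KO made from it, Halo-SMCHD1 with an N-terminal Halo-tag on endogenous SMCHD1, and 5 lines made from Halo-SMCHD1, namely LRIF1 KO and the SMCHD1 point mutants E147A, Y353C, G137E and K518E. E147A and Y353C are described as loss-of-function changes of the ATPase domain and G137E and K518E as gain-of-function changes, and each line is 1 clone. Halo-SMCHD1 and the lines made from it gave 1 uninduced library and 1 library after 24 h of dox at 1.0 µg/mL each. Monolayer differentiation under dox gave 3 libraries each at day 7 for Halo-SMCHD1 and G137E, 2 for every other line, and 2 each at day 5 for Halo-SMCHD1, G137E and K518E. Libraries of a line and day are replicate differentiation experiments of 1 clone, so tests refer to the spread between such experiments and not between clones.

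The columns taken as iXist-ChrX are headed by a clone name absent from the labels, and they were assigned to that line because every other labelled line had columns of its own. The table numbers the E147A day 7 libraries 1 and 3 where the labels number them 1 and 2, and the library without a matching number is called the unmatched E147A library. The reads of iXist-ChrX replicate 1 had been recovered by the authors from an earlier alignment. Smchd1 and Lrif1 are autosomal, so the tables of X-linked genes do not check the genotypes. The paper reports that its ChrRNA-seq reads carry the designed SMCHD1 point mutations and that LRIF1 KO was screened by PCR, sequencing and western blot. Xist itself came from the Xi allele, with a fraction of at least 0.997 in each of the 30 libraries with dox and 0.881 to 0.995 before induction. The tables used here hold fractions without counts, so read depth is unknown and no counting error can be given.

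Ogt lies on the plus strand at chrX:101640050-101684351 (mm10, coordinates as deposited). GENCODE vM21 lists it as a protein-coding gene with 7 transcripts, 2 of them protein-coding, and no other annotated gene overlaps it. The fraction was counted over exons and introns together. Upstream, Taf1 ends 38261 bases before Ogt starts, and downstream Nhsl2 starts 165033 bases after Ogt ends. Of the 27 other protein-coding genes that start within 1 Mb of Ogt, 16 are in the tables and are called its neighbours here. The bases upstream of the starts of Ogt and of Taf1 are shown because Taf1, the nearest measured gene upstream, had the highest correlation with Ogt by one of the measures of likeness given further on. Both are RefSeq promoter windows of build GRCm38.p6 on the plus strand, cut to the 249 bases before the gene start, at chrX:101639801-101640049 for Ogt and chrX:101532485-101532733 for Taf1, with CG dinucleotides in capitals.
Ogt: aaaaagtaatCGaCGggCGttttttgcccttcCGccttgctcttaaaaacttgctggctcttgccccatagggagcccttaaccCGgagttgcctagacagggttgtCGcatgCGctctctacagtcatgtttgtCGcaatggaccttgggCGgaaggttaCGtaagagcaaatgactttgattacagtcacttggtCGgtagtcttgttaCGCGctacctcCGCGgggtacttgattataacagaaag
Taf1: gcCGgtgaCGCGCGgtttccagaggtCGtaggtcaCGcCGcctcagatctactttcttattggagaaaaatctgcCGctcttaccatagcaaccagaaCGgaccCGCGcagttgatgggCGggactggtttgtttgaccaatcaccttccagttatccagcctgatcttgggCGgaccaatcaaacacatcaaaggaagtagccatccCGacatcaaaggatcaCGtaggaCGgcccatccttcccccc
The Ogt stretch holds 15 CG dinucleotides and the Taf1 stretch 16. Of all 32851 RefSeq mouse promoter windows cut to the same length, 27.3% hold 15 or more. Of the 10 neighbours with a window, 3 hold as many as Ogt or more, and their counts run from 5 in Hdac8, a histone deacetylase, to 21 in Med12, a Mediator subunit. The count of CG dinucleotides is the same on either strand.

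Before Xist induction, Ogt was transcribed nearly equally from both X chromosomes. Its fraction was 0.511 in Halo-SMCHD1, 0.501 in E147A, 0.503 in G137E, 0.506 in Y353C, 0.508 in LRIF1 KO and 0.510 in K518E, with 1 library each. The median gene of the same libraries was at 0.514 to 0.524, slightly above Ogt in each of the 6 lines. After 24 h of dox the Ogt fraction was 0.335 in Halo-SMCHD1, 0.356 in E147A, 0.344 in G137E, 0.330 in Y353C, 0.339 in LRIF1 KO and 0.312 in K518E. All 6 values lay below all 6 uninduced values, and 61.2% to 71.1% of the starting fraction was left. The library medians were then 0.212 to 0.277, so Ogt stood 1.21 to 1.47 times above the median gene, whereas before induction it stood at 0.964 to 0.987 times the median. E147A had the highest value and K518E the lowest at 24 h, each from a single library without a replicate check.

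**Figure D1:**
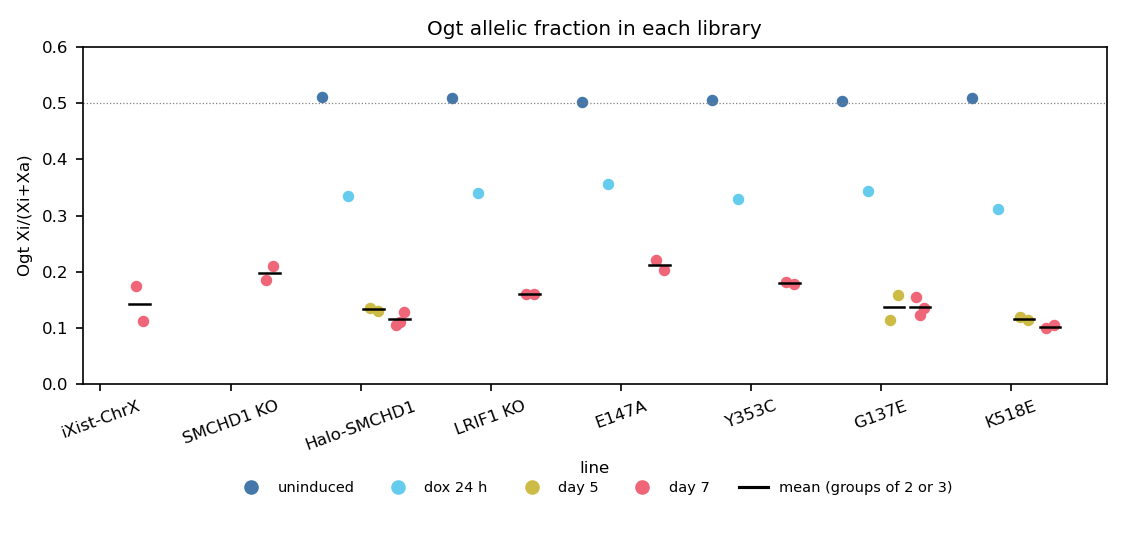
Ogt Xi/(Xi+Xa) on the vertical axis in each of the 36 libraries, by line, with points coloured by stage and black bars for means of 2 or 3 libraries. The 6 uninduced libraries sit between 0.501 and 0.511, the 6 libraries with 24 h of dox between 0.312 and 0.356, and the 24 differentiated libraries between 0.0990 and 0.221.

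In differentiated cells the Ogt fraction was lower again but not near 0, and it lay above that of most measured genes on the chromosome. At day 5 the values were 0.136 and 0.130 in Halo-SMCHD1, 0.114 and 0.159 in G137E, and 0.119 and 0.115 in K518E. At day 7 Halo-SMCHD1 had 0.106, 0.111 and 0.128, a mean of 0.115 ± 0.0117 (SD, n = 3), and parental iXist-ChrX had 0.174 and 0.111, a mean of 0.143 ± 0.0446 (SD, n = 2). The libraries of these SMCHD1-proficient lines overlapped, and iXist-ChrX replicate 1 lay above all 3 Halo-SMCHD1 libraries. At day 7 SMCHD1 KO had 0.186 and 0.210, a mean of 0.198 ± 0.0167 (SD, n = 2). LRIF1 KO had 0.160 and 0.161, a mean of 0.161 ± 0.000175 (SD, n = 2). Among the ATPase mutants at day 7, E147A had 0.221 in replicate 1 and 0.203 in the unmatched library, a mean of 0.212 ± 0.0128 (SD, n = 2). Y353C had 0.181 and 0.179, a mean of 0.180 ± 0.00162 (SD, n = 2). The gain-of-function lines were lower. G137E had 0.155, 0.123 and 0.135, a mean of 0.138 ± 0.0163 (SD, n = 3), and K518E had 0.0990 and 0.105, a mean of 0.102 ± 0.00412 (SD, n = 2).

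Ordered by mean, the line-and-day groups ran from E147A at day 7 through SMCHD1 KO, Y353C, LRIF1 KO, iXist-ChrX and G137E at day 7, then G137E, Halo-SMCHD1 and K518E at day 5, to Halo-SMCHD1 and K518E at day 7. E147A and SMCHD1 KO differed by 0.0143, less than their pooled SD of 0.0149. From LRIF1 KO down to Halo-SMCHD1 at day 5, every step between adjacent groups was below the pooled SD and the libraries overlapped. K518E at day 5 and Halo-SMCHD1 at day 7 also overlapped. The remaining 4 steps were larger than the pooled SD without overlap: SMCHD1 KO to Y353C, Y353C to LRIF1 KO, Halo-SMCHD1 to K518E at day 5, and Halo-SMCHD1 to K518E at day 7. With 2 or 3 libraries a group these SDs are themselves imprecise.

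In every one of the 24 differentiated libraries Ogt exceeded the library median, by 1.93 to 5.33 times. Its rank from the highest fraction was between 16 and 57, and 77.1% to 93.6% of the genes lay below it. Relative to its own uninduced library, the day 7 fraction was 20.7% to 25.1% in Halo-SMCHD1, 40.5% to 44.2% in E147A, 35.3% and 35.7% in Y353C, 31.6% in both LRIF1 KO libraries, 24.4% to 30.8% in G137E and 19.4% and 20.6% in K518E. E147A and K518E were at the ends of this range. The uninduced fractions lay between 0.501 and 0.511, so this order follows from the day 7 fractions themselves and is not separate evidence. iXist-ChrX and SMCHD1 KO have no uninduced library in the tables used here.

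**Figure D2:**
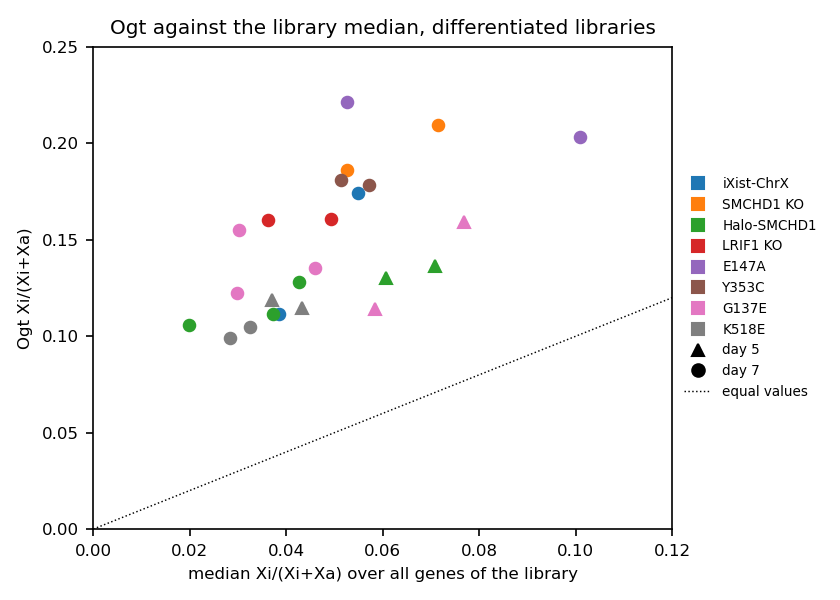
Ogt Xi/(Xi+Xa) (vertical) against the median over all genes of the same library (horizontal) in the 24 differentiated libraries, coloured by line, with triangles for day 5, circles for day 7 and a dotted line of equal values. All points lie above the line, and the unmatched E147A library lies farthest right, with a median of 0.101.

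The comparison that selected Ogt set E147A against Halo-SMCHD1 at day 7. The means were 0.212 and 0.115, a difference of 0.0972 or a ratio of 1.84, and both E147A libraries lay above the 3 Halo-SMCHD1 libraries. On the log2 odds of Xi against Xa the difference was 1.00, and the median over all 249 genes was 0.87. In the list of 40 genes Ogt came after Araf, a protein kinase gene with a difference in fraction of 0.112. The gene after Ogt was Tbc1d25, at 0.0972 as well, with Ogt the larger before rounding. The limma call rate in this comparison was 16.1% of genes, all higher in E147A, and the libraries did not overlap for 46.6% of genes. Of the 249 genes, 218 had a higher mean log2 odds in E147A. The library medians were 0.0526 in E147A replicate 1 and 0.101 in the unmatched E147A library, against 0.0198, 0.0372 and 0.0426 in Halo-SMCHD1. Measured from the median log2 odds of its own library, Ogt stood 2.16 and 1.12 higher in the E147A libraries and 2.09, 1.53 and 1.48 higher in the Halo-SMCHD1 libraries, which overlap. The mean difference on this centred scale was -0.06, so the direction of the E147A difference depended on whether the library median was subtracted.

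The other lines derived from Halo-SMCHD1 were set against the same 3 day 7 libraries. The differences share those controls and are not separate evidence. For Y353C the difference in the Ogt fraction was 0.0647, or 0.71 in log2 odds, and for LRIF1 KO it was 0.0455, or 0.53. Neither line overlapped with Halo-SMCHD1. Non-overlap was found for 42.2% of genes in Y353C and 24.1% in LRIF1 KO, and the median gene differed by 0.52 and 0.26 in log2 odds. For G137E the difference was 0.0226, or 0.27 in log2 odds, with overlapping libraries and a median gene at 0.05. For K518E it was -0.0132, or -0.18 in log2 odds, without overlap, as for 17.8% of genes, and with a median gene near 0. With library medians subtracted, the Ogt differences in log2 odds were 0.07 for Y353C, 0.19 for LRIF1 KO, 0.18 for G137E and -0.13 for K518E.

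Comparisons between groups other than E147A and Halo-SMCHD1 at day 7 were tested with limma over all genes of a table. Their spread was estimated from all differentiated libraries of the table. These include Halo-SMCHD1 at day 7 and, in the larger table, E147A, so SEs and p-values were not independent of the selection. In fits of only the libraries compared, the lowest adjusted p for Ogt was 0.333 (limma), for Y353C minus G137E. None of the 7 comparisons passed the adjusted p threshold of 0.05 for Ogt, and 0 of 7 had an unadjusted p under 0.05. The first asked whether complete loss of SMCHD1 altered the Ogt fraction in the parental background. SMCHD1 KO exceeded iXist-ChrX at day 7 by 0.0551 in fraction (ratio 1.39), and the libraries did not overlap, as for 35.3% of genes. In log2 odds the difference was 0.57, SE 0.27, with a 95% interval of -0.01 to 1.14 (limma, adjusted p = 0.363), while the median gene was higher by 0.26 and 0.803% of genes were called. The exact two-sided permutation test gave p = 0.333, the smallest that 2 libraries against 2 allow. The value depended on which parental library was kept, at 0.92 when replicate 1 of iXist-ChrX was left out and 0.21 when its replicate 2 was. With library medians subtracted it was 0.20.

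The second pair of tests set lines with impaired SMCHD1 function or without LRIF1 against G137E at day 7. Y353C exceeded G137E by 0.0421 in fraction without overlap, as was so for 34.9% of genes. The log2 odds differed by 0.44, SE 0.24, with a 95% interval of -0.08 to 0.96 (limma, adjusted p = 0.394). The median gene differed by 0.48 and 0.402% of genes were called. LRIF1 KO exceeded G137E by 0.0229 without overlap, as for 20.1% of genes, or by 0.25 in log2 odds, SE 0.24, with a 95% interval of -0.27 to 0.78 (limma, adjusted p = 0.783). The median gene differed by 0.18 and limma called 0% of genes, with 14 at an unadjusted p under 0.05. The exact two-sided permutation test gave p = 0.2 for each, the smallest that 2 libraries against 3 allow. Subtracting library medians turned the Y353C difference to -0.11 and gave 0.015 for the LRIF1 KO difference.

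At day 5 the gain-of-function lines were tested against Halo-SMCHD1. G137E and Halo-SMCHD1 overlapped, with a difference of 0.00318 in fraction and 0.02 in log2 odds, SE 0.23, and a 95% interval of -0.49 to 0.53 (limma, adjusted p = 1). In this comparison limma called 0% of genes, with 7 at an unadjusted p under 0.05, and the libraries did not overlap for 24%. K518E lay below Halo-SMCHD1, with a difference of -0.0166 in fraction without overlap, as was so for 66.5% of genes. The log2 odds differed by -0.21, SE 0.23, with a 95% interval of -0.71 to 0.30 (limma, adjusted p = 0.609). The median gene differed by -0.46 and 0.413% of genes were called. With library medians subtracted, the Ogt difference was 0.41, with K518E higher. These intervals include differences of either sign and do not show that the lines had equal Ogt fractions.

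From day 5 to day 7 in G137E the median gene differed by -0.64 in log2 odds and 7.44% of genes were called, all lower at day 7, while the Ogt difference lay near 0. The Ogt difference was 0.02, SE 0.21, with a 95% interval of -0.44 to 0.49 (limma, adjusted p = 0.971), and the libraries overlapped. Its sign changed without G137E day 5 replicate 1, at -0.24, and without G137E day 7 replicate 1, at -0.07. With library medians subtracted it was 0.84 (limma, adjusted p = 0.161). In K518E the Ogt fraction at day 7 differed from that at day 5 by -0.0148 without overlap, as for 48.8% of genes, or by -0.20 in log2 odds, SE 0.23, with a 95% interval of -0.71 to 0.31 (limma, adjusted p = 0.931). The median gene differed by -0.22 and 0.413% of genes were called. The day change in K518E minus that in G137E was -0.23, SE 0.31 (limma interaction, adjusted p = 0.888). In Halo-SMCHD1 the mean went from 0.133 at day 5 to 0.115 at day 7, which is described only.

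**Figure D3:**
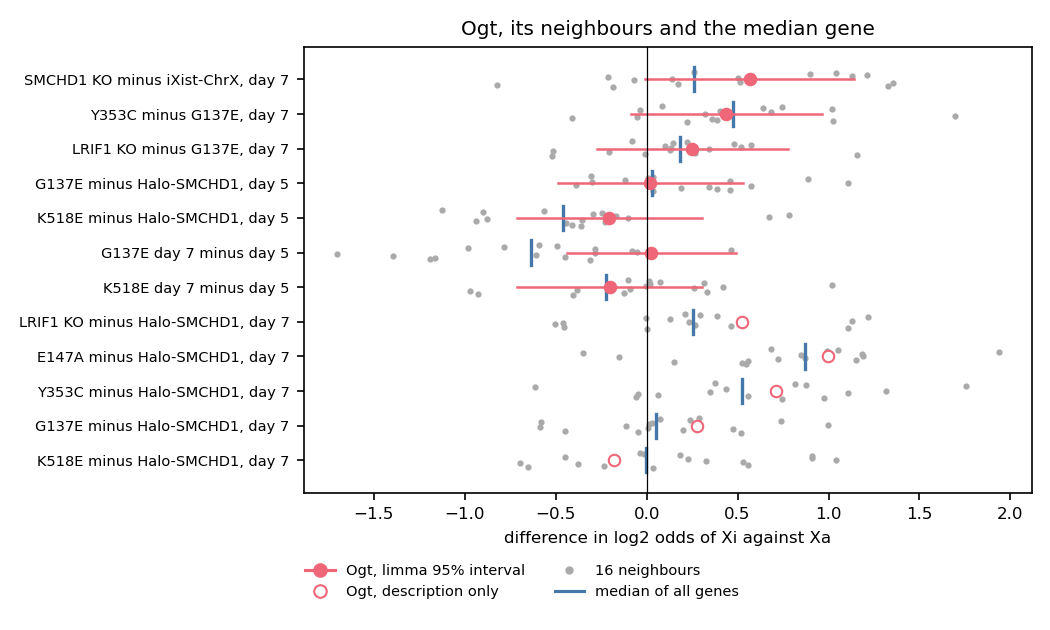
Differences in log2 odds of Xi against Xa for Ogt (red), its 16 neighbours (grey points) and the median of all genes of the table (blue bars), 1 row per comparison. Filled circles carry limma 95% intervals, which all include 0, and open circles mark comparisons that were described without a test because they use the Halo-SMCHD1 day 7 libraries.

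Most neighbours of Ogt had lower fractions than Ogt once Xist was induced, as did most genes of the tables. Before induction, 6 to 8 of the 16 neighbours lay below Ogt in each library. After 24 h of dox 12 to 14 lay below it, at day 5 13 in each of the 6 libraries, and at day 7 12 to 14. Over all genes the mean share below Ogt was 41.4% before induction, 74.4% after 24 h of dox, 81.7% at day 5 and 86.9% at day 7, so the neighbours were close to the rest of the tables. The neighbours above Ogt in Halo-SMCHD1 at day 7 were Pin4, a peptidyl-prolyl isomerase gene, at 0.416 ± 0.0617 (SD, n = 3), Nono, which encodes an RNA-binding paraspeckle protein, at 0.309 ± 0.0669 (SD, n = 3), and Snx12, a sorting nexin gene, at 0.133 ± 0.0104 (SD, n = 3). The median of the 16 neighbours was 0.0268 in the same group. The lowest was Foxo4, a forkhead transcription factor gene, at 0.00392 ± 0.00679 (SD, n = 3). Nhsl2, the nearest measured gene downstream, was at 0.0128 after 24 h of dox in Halo-SMCHD1. It was at 0.0216 in Y353C, 0.0352 in K518E, 0.0417 in G137E and 0.0472 in LRIF1 KO, and higher in E147A. Each value rests on 1 library of unknown depth.

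**Figure D4:**
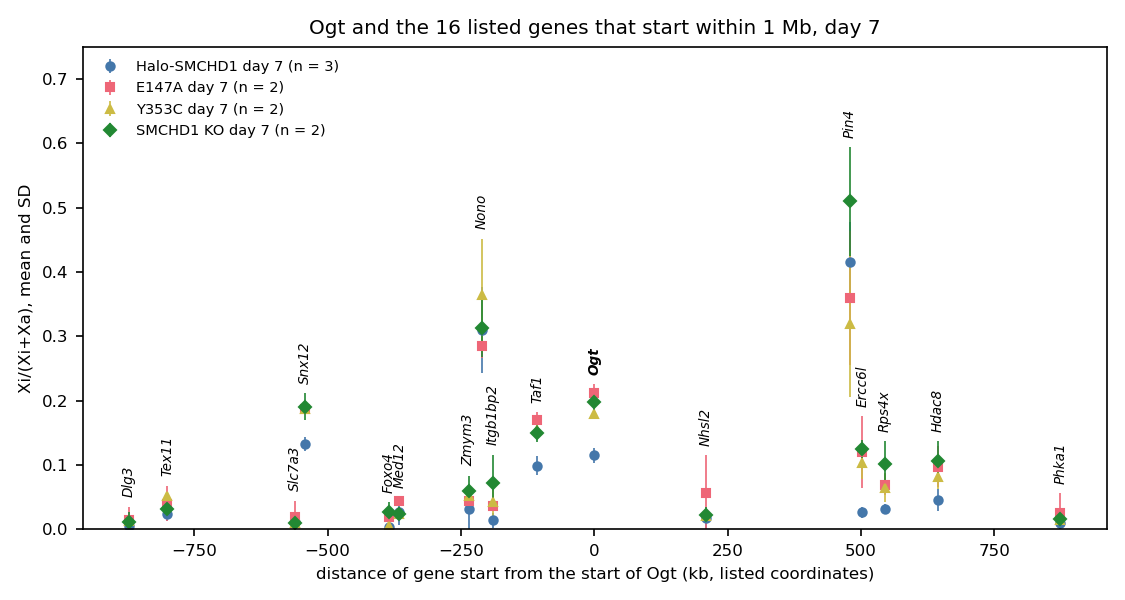
Xi/(Xi+Xa) at day 7, as mean and SD over libraries, of Ogt and the 16 measured genes that start within 1 Mb, against the distance of their start from that of Ogt in kb, for Halo-SMCHD1, E147A, Y353C and SMCHD1 KO. Pin4 and Nono lie above Ogt in all 4 lines, and most other neighbours lie near the bottom.

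Taf1, which encodes the largest TFIID subunit and starts 107.316 kb before Ogt, had day 7 fractions of 0.0869, 0.0936 and 0.116 in Halo-SMCHD1, 0.161 and 0.178 in E147A, 0.144 and 0.165 in Y353C, 0.140 and 0.159 in SMCHD1 KO, and 0.120 and 0.0965 in iXist-ChrX. Like Ogt, it was higher in E147A, Y353C, SMCHD1 KO and LRIF1 KO than in their controls without overlap. Libraries did not overlap, in either direction, for 46.6%, 42.2%, 35.3% and 24.1% of all genes in these comparisons. Taf1 started from a lower balance, at 0.391 before induction in Halo-SMCHD1. The difference between E147A and Halo-SMCHD1 was 0.85 in log2 odds, SE 0.20, beside 1.00 for Ogt.

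Ercc6l, which encodes a DNA translocase that acts on anaphase bridges and starts 502.769 kb after Ogt, had 0.0352, 0.0181 and 0.0263 in Halo-SMCHD1, 0.0809 and 0.159 in E147A, and 0.0855 and 0.121 in Y353C at day 7. Neither mutant overlapped with Halo-SMCHD1, as for 46.6% of genes in E147A and 42.2% in Y353C. The difference was 1.94 in log2 odds, SE 0.39, for E147A and 1.76, SE 0.39, for Y353C (limma, adjusted p = 0.0217 for Y353C). Ercc6l was also higher than in Halo-SMCHD1 at day 7 in LRIF1 KO, K518E and G137E, by 1.22, 0.91 and 0.74. Its Halo-SMCHD1 mean was 0.0265 at day 7 and 0.0551 at day 5. Nono and Pin4 differed between E147A and Halo-SMCHD1 by -0.15 and -0.35 in log2 odds, with overlapping libraries.

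Across the neighbours, 2 of 16 were called between E147A and Halo-SMCHD1, namely Taf1 and Ercc6l, both higher. With 16.1% of all genes called there, and since that comparison selected Ogt, nothing is read from this count. The 2 calls were lost without the unmatched E147A library, in a fit of only the libraries compared, with the replicate block and when library medians were subtracted, and 1 was lost without Halo-SMCHD1 replicate 1. Between Y353C and Halo-SMCHD1 1 of 16 was called, Ercc6l, beside 3.61% of all genes. The call was lost without Halo-SMCHD1 replicate 1 or 2 or either Y353C replicate, in a fit of only the libraries compared, and when library medians were subtracted. For SMCHD1 KO against iXist-ChrX limma called 0 of 16 beside 0.803% of all genes, and 12 of the 16 differences were above 0. An unadjusted p under 0.05 was found there for 6 of the 16 neighbours and for 34 of all 249 genes. Limma called 0 of 16 for LRIF1 KO against Halo-SMCHD1, beside 0% of all genes. There 3 neighbours and 28 of all 249 genes had an unadjusted p under 0.05. At day 5 limma called 0 of 16 for G137E and for K518E, beside 0% and 0.413% of genes. In each, 1 neighbour had an unadjusted p under 0.05. Of all 242 genes, 7 did so for G137E and 31 for K518E. The median neighbour difference was 0.78 in log2 odds for E147A, 0.63 for Y353C, 0.25 for LRIF1 KO and 0.51 for SMCHD1 KO, beside 0.87, 0.52, 0.26 and 0.26 for all genes.

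The genes with fractions most like those of Ogt were found by the mean absolute difference over the 30 libraries of the larger table. They were Mmgt1, a membrane magnesium transporter gene, at 0.0203, Otud5, a deubiquitinase gene, at 0.0234, and Araf at 0.0289. None of them starts within 1 Mb of Ogt. Over only the 20 differentiated libraries they were Otud5, Mmgt1 and the neighbour Snx12. By Pearson correlation of log2 odds after subtraction of the library median, over the same 20 libraries, the closest were Taf1 at 0.88, Otud5 at 0.79 and Yipf6 at 0.79. The median correlation was 0.13 over the 248 other genes and 0.35 over the neighbours, with a lowest neighbour value of -0.54. These points share libraries and unknown depth, and the correlations are given as a description.

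Of 10 other X-linked genes listed for glycosylation and its partners, 7 were measured. In E147A against Halo-SMCHD1 1 of the 7 was called, beside 16.1% of all genes, so that nothing is read from the count. This was Gpc4, a cell-surface proteoglycan gene, higher in E147A at 0.0313 ± 0.00485 (SD, n = 2) against 0.0107 ± 0.00469 (SD, n = 3). Limma called 0 of 7 in SMCHD1 KO, LRIF1 KO, Y353C, and G137E and K518E at day 5, with 3, 1, 2, 0 and 0 at an unadjusted p under 0.05. The same unadjusted threshold was met by 34, 28 and 49 of all 249 genes, and by 7 and 31 of 242. The shares of all genes called in these comparisons were 0.803%, 0%, 3.61%, 0% and 0.413%, so 0 of 7 called is close to the background. Differences in log2 odds were above 0 for 7 of 7 in SMCHD1 KO, LRIF1 KO and Y353C, 6 in E147A, and 4 in G137E and 1 in K518E at day 5. Over all genes they were above 0 for 167 of 249 in SMCHD1 KO, 171 in LRIF1 KO, 208 in Y353C and 218 in E147A, and for 132 of 242 in G137E and 48 in K518E. Hcfc1, which encodes the OGT substrate HCF-1, was at 0.0775 ± 0.0106 (SD, n = 3) in Halo-SMCHD1 and 0.140 ± 0.0403 (SD, n = 2) in E147A at day 7. In SMCHD1 KO it was at 0.158 ± 0.0383 (SD, n = 2) against 0.0851 ± 0.0211 (SD, n = 2) in iXist-ChrX, a log2 odds difference of 0.94, SE 0.32 (limma, adjusted p = 0.286). Hcfc1 was therefore lower than Ogt in these 4 groups.

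Of 13 genes known to escape X inactivation in other mouse cells, 6 were measured and serve as a scale for incomplete silencing. In Halo-SMCHD1 at day 7, Kdm6a, a histone demethylase gene, was at 0.253 ± 0.0195 (SD, n = 3), Eif2s3x, a translation initiation factor gene, at 0.218 ± 0.0269 (SD, n = 3), Utp14a, a ribosome biogenesis gene, at 0.218 ± 0.0113 (SD, n = 3), and Ddx3x, an RNA helicase gene, at 0.147 ± 0.0267 (SD, n = 3). Ogt, at 0.115, lay below these 4 and above the other 2, 1810030O07Rik at 0.0867 ± 0.0175 (SD, n = 3) and Shroom4 at 0.0305 ± 0.00926 (SD, n = 3). In E147A Eif2s3x was the 1 of 6 called, beside 16.1% of all genes, at 0.301 ± 0.00173 (SD, n = 2), and Ogt at 0.212 lay below it. Limma called 0 of the 6 escape genes in SMCHD1 KO, LRIF1 KO, Y353C, and G137E and K518E at day 5. The shares of all genes called were the same low ones (0.803%, 0%, 3.61%, 0% and 0.413%). An unadjusted p under 0.05 was found for 0, 2, 1, 0 and 1 of the 6. It was found for 34, 28 and 49 of all 249 genes, and for 7 and 31 of 242.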

How the data were processed

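Chromatin RNA-seq fractions of X-linked genes were analysed in 36 libraries of 8 lines, grouped by line and stage from the sample labels. The authors removed rRNA reads with bowtie2, aligned the rest to N-masked mm10 with STAR, kept unique alignments, assigned them to 129S or Cast with SNPsplit and ran featureCounts by strand over whole transcripts, introns included. Per gene and library they deposited the fraction Xi/(Xi+Xa), keeping genes whose SNP-covering reads numbered 10 or more. They are not scaled between libraries. Because counts are not part of the tables used here, depth and counting error are unknown.

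One table has 249 genes in 30 libraries and the other 242 genes in 20 libraries. The 14 shared libraries had identical values in the 239 shared genes. G137E and K518E comparisons with each other's day or with Halo-SMCHD1 used the latter. Fractions r were tested as log2((r + 0.01)/(1 - r + 0.01)) with limma 3.58.1 in R 4.3.3, fitting a table's differentiated libraries together, with Benjamini-Hochberg adjustment over its genes and a threshold of 0.05. For single values, exact two-sided permutation tests were run in scipy 1.17.1 under Python 3.11.15. Alternatives covered pseudocounts, scale, samples, replicate block, gene filter, moderation, table and single libraries. A further one, subtraction of library medians, was chosen after seeing the data.

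Ogt, the gene lists and the tests were chosen with earlier results of these data known. Named genes are Ogt, the genes starting within 1 Mb, Xist, glycosylation and escape genes, the 3 most alike genes by each measure, and the gene after Ogt in the E147A list. Araf, just above Ogt in that list, is also named. Windows of Ogt and Taf1 come from RefSeq.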

Additional observations from a re-analysis of the deposited data

How the results depend on the processing

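The 7 tested Ogt differences were recomputed under 95 alternatives in all, and adjusted p stayed between 0.161 and 1. Subtracting library medians, chosen after seeing the data, turned the sign for Y353C minus G137E (-0.11), G137E minus Halo-SMCHD1 at day 5 (-0.00043), K518E minus Halo-SMCHD1 at day 5 (0.41), the K518E day change (0.12) and the described E147A difference (-0.057). It gave 0.20 for SMCHD1 KO minus iXist-ChrX, 0.015 for LRIF1 KO minus G137E and 0.84 for the G137E day change (limma, adjusted p = 0.161). Leaving out 1 library at a time gave log2 odds differences of -0.24 to 0.28 for G137E minus Halo-SMCHD1 at day 5, -0.24 to 0.29 for the G137E day change and 0.21 to 0.92 for SMCHD1 KO. Neighbour calls between E147A and Halo-SMCHD1 ran from 0 to 4 when 1 library was left out, and were 4 on untransformed fractions, 0 with only the libraries compared, 0 with the replicate block and 0 with library medians subtracted. For Y353C they ran from 0 to 2 when 1 library was left out, and were 2 with a pseudocount of 0.05, 2 after division by the uninduced value, 0 with only the libraries compared and 0 with library medians subtracted. The causes of these changes were not tested.

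Correlations of deviations between same-numbered libraries ran from -0.28 to 0.12 over 14 pairs, and the numbers were not taken to pair them. Where 2 libraries were compared with 2, both pairs give the same value, so the 14 values are not all separate. The paper states that wells within a biological replicate came from a common batch of cells, so a pairing by number remains possible. The replicate block turned the G137E day change to -0.013 (limma, adjusted p = 0.984), and calls over all genes went from 18 to 56 there and from 40 to 11 for E147A. Over all alternatives, calls among all genes ran from 0 to 6 for SMCHD1 KO (2 as reported), 1 to 88 for E147A (40), 0 to 12 for Y353C against Halo-SMCHD1 (9), 0 to 3 for Y353C against G137E (1) and 0 to 56 for the G137E day change (18). For LRIF1 KO against Halo-SMCHD1 they ran from 0 to 2 (0), against G137E from 0 to 1 (0), for G137E at day 5 from 0 to 1 (0), for K518E at day 5 from 1 to 2 (1) and for the K518E day change from 0 to 1 (1). Unknown depth limits every value, most of all those near 0.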
